A study of Mus musculus with 4 samples.

Results

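Potassium channel subunits were followed in RNA from the sciatic nerve, in HSF V30M mice and their HSF WT counterparts. The members are the 92 genes, of 50593 in the table, whose symbol consists of Kcn, letters and a closing number. They comprise 67 pore-forming subunits, 10 modifier subunits that do not form channels on their own, and 15 auxiliary subunits. Both groups were 6 months old, of the 129S1/SvImJ strain, and heterozygous for a deletion of Hsf1, which encodes heat shock factor 1. HSF V30M mice carry in addition a human TTR V30M transgene on a background null for mouse Ttr, and HSF WT mice carry no transgene. The labels list 2 mice per group, and the authors' Cuffdiff run gave 1 value per gene and group, in FPKM, a count of fragments scaled to transcript length and to sequencing depth. Where a pair of values is given without group names, that of HSF V30M stands first. No spread between mice can be given, so every difference below compares pooled libraries, without a test and without a replicate check.

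Potassium channels let potassium ions leave or enter the cell along their gradient and so set the resting potential and end the action potential. In myelinated peripheral axons, Kv1 channels cluster beneath the myelin at the juxtaparanodes, next to the node of Ranvier, while glia use inward rectifiers and two-pore-domain channels to hold their membrane potential and to take up potassium released by firing axons. The sciatic nerve holds axons, Schwann cells, vessels, fibroblasts and fat, but not the neuronal cell bodies in which most axonal channel mRNA is made.

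Pore-forming subunits share a short selectivity signature, the loop that lines the narrowest part of the pore. Its codons were searched in the longest complete coding sequence of each member in GENCODE M21, as threonine or serine, then valine, isoleucine, leucine or threonine, then glycine, then tyrosine, phenylalanine or leucine, then glycine. All 14 two-pore-domain members held 2 copies, all 63 of the other pore-forming and modifier members held 1, and the 15 auxiliary members held 0. The residues allowed were narrowed after a wider search had given a further match in Kcna6 and in Kcnh2, so these counts describe the search and are no test. The codons are shown for members that lead the tissue or are among those that differ most between the groups, 5′ to 3′ on the coding strand, with the 15 bases of the signature in capitals.
Kcna1: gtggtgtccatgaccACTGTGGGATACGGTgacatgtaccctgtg
Kcna2: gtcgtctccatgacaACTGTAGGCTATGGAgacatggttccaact
Kcna6: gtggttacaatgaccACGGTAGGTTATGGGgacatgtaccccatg
Kcnh2: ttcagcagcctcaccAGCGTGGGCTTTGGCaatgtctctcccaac
Kcnn4: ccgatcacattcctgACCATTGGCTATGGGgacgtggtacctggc
Kcnj15: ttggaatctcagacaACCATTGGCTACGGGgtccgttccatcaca
Kcnj13: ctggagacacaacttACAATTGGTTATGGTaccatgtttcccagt
Kcnk1, first copy: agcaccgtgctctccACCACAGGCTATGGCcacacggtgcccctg
Kcnk1, second copy: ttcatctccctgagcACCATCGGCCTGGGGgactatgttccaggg

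On GRCm38 the stretches lie at chr6:126642213-126642257 on the minus strand for Kcna1, chr3:107105209-107105253 on the plus strand for Kcna2, chr6:126738632-126738676 on the minus strand for Kcna6 and chr5:24325540-24325584 on the minus strand for Kcnh2. Those of Kcnn4 and Kcnj15 lie on plus strands at chr7:24379183-24379227 and chr16:95295965-95296009. That of Kcnj13 lies at chr1:87389006-87389050 on the minus strand, and the second copy of Kcnk1 at chr8:126025314-126025358 on the plus strand. In the first copy of Kcnk1 an intron interrupts the stretch. Of the 15 signature bases, Kcna2 differed from Kcna1 at 4, Kcna6, Kcnj13 and Kcnj15 at 5, Kcnh2 and Kcnn4 at 6, and the copies of Kcnk1 at 7 and 8, so that the count did not set the Kv1 members apart.

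The targeted genes bear on the group labels. Hsf1, of which all mice carry a deleted copy, stood at 7.94 FPKM under the HSF V30M label against 15 under the HSF WT label. Mouse Ttr, null in the transgenic mice by the labels, stood at 6.10 under the HSF V30M label and at 0 under the HSF WT label. Ttr therefore went against the null allele. Reads of the human transgene were not distinguished from mouse reads here, the labels are used as given, and every direction below rests on them. Low values of single-transcript genes showed, after they had been seen, what 1 fragment is worth in each library, which placed the HSF WT libraries 1.35-fold apart in depth and the HSF V30M libraries 1.19-fold apart. Markers of myelinating Schwann cells summed to 12408 FPKM under the HSF V30M label and 10920 under the HSF WT label.

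A few members held most of the channel expression in the nerve. Of the 92 members, 35 had a mean FPKM of at least 1 and 8 had one of at least 10, while 6 were listed at 0 in both groups. Kcna1, Kcna2 and Kcna6 together held 54.8% of the summed FPKM of all members in HSF V30M, against 51.0% in HSF WT. With Kcnk1 and Kcnj13, the leading 5 members held 69.4% and 67.1%, respectively. The value of Kcnj13 is limited by a gene that overlaps it, as given below. The summed FPKM of all members was 455 in HSF V30M against 421 in HSF WT.

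**Figure D1:**
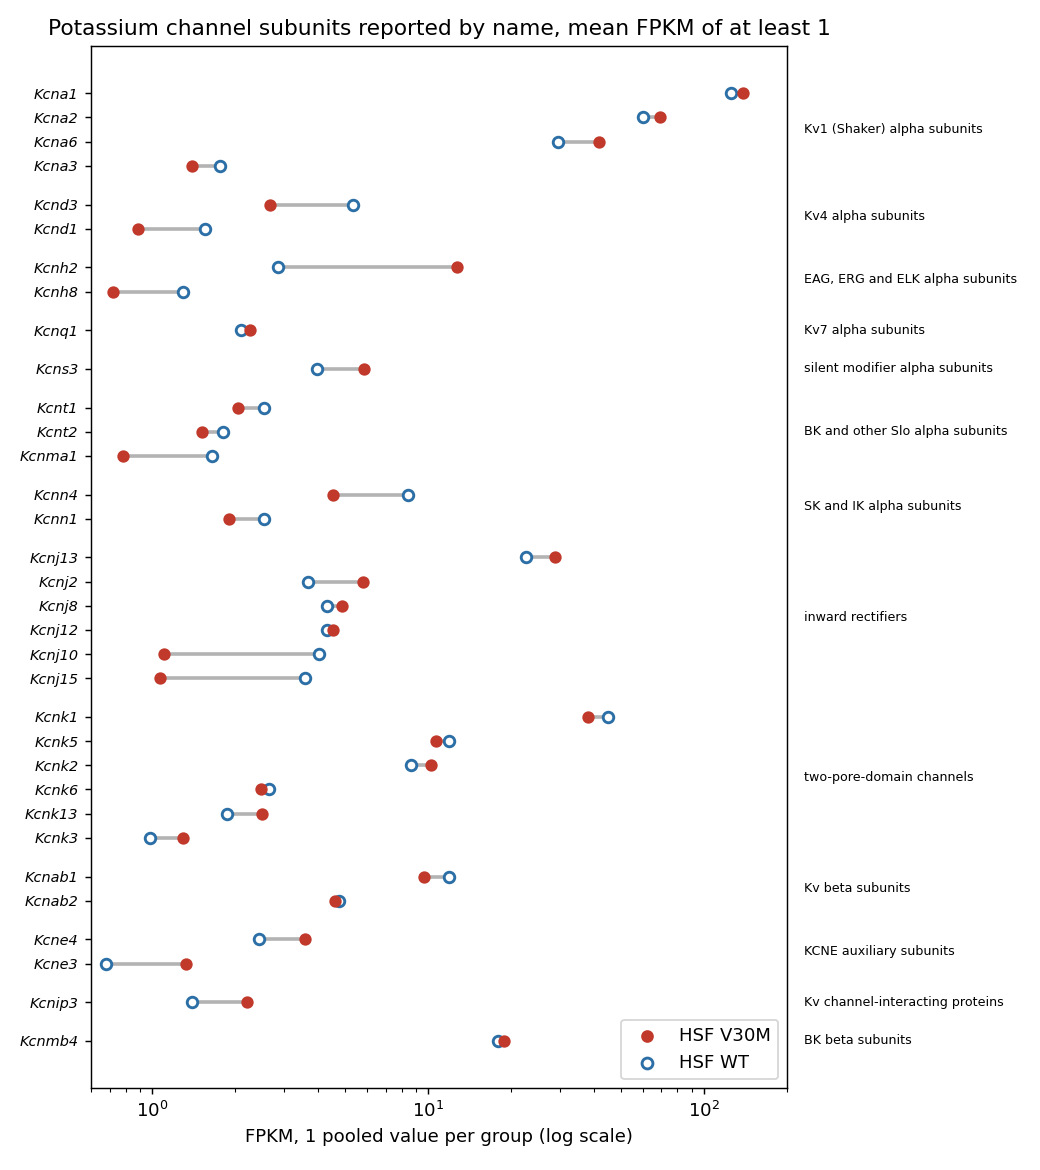
FPKM (log scale) of members reported by name with a mean of at least 1, ordered by channel class, with filled red points for HSF V30M and open blue points for HSF WT. Each point is 1 pooled value per group with no error bar; Kcna1 leads in both groups, and the longest gaps between the points are those of Kcnh2, Kcnj10 and Kcnj15.

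Between the groups, under the HSF V30M label 1 member was higher and 4 were lower by more than 1.5-fold on the log2(FPKM + 1) scale. Kcnh2 was the higher one, and Kcnj10, Kcnj15, Kcnd3 and Kcnn4 were the lower ones. The count is over the 35 members with a mean FPKM of at least 1. Across all 15620 genes with that mean, 8.22% were past the same fold in the higher direction and 8.44% in the lower, against 2.86% and 11.4% of the members. In either direction the shares were 14.3% of members and 16.7% of all genes. This reading depends on the added 1, since with 0.1 added instead 4 members were higher and 8 lower, against 10.9% and 10.8% of all genes. The members had a median log2 ratio, HSF V30M over HSF WT, of 0.05 and all genes one of 0.00, and 18 members were higher and 17 lower by any amount. Nearest to the limit among the members past it was Kcnn4, with a log2 ratio of -0.78, and nearest among those not past it were Kcnma1, with -0.57, and Kcnj2, with 0.53. In bulk nerve, fewer cells of a type and less RNA per cell cannot be told apart.

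**Figure D2:**
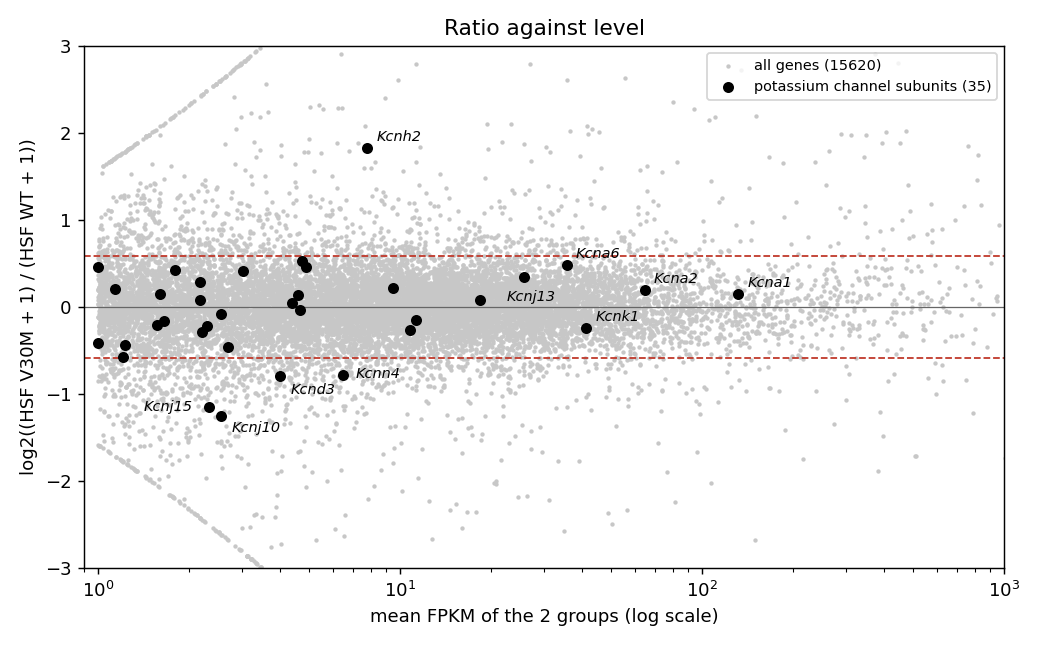
Log2 ratio (HSF V30M over HSF WT), on values with 1 added, against the mean FPKM of the groups (log scale). Grey points are all 15620 genes with a mean of at least 1, of which 526 lie outside the plotted range, black points are the 35 channel subunits, and dashed lines mark the 1.5-fold limits; 5 subunits lie past the lines.

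The Kv1 alpha subunits, which open on depolarisation and limit repetitive firing, were the leading class. Kcna1 had 138.5 FPKM in HSF V30M against 125.0 in HSF WT, and 650 of all genes in the table had a higher mean. Kcna2, its usual partner in axonal heteromers, had 69.2 and 60.2, and Kcna6, a further axonal Kv1 subunit, had 41.7 and 29.5. All 3 were somewhat higher in HSF V30M and none was past the fold, the log2 ratios being 0.15, 0.20 and 0.48. The level of Kcna1 over that of Kcna2 was 2.0 in HSF V30M against 2.1 in HSF WT, and that of Kcna1 over Kcna6 was 3.32 and 4.23. Kcna3, known from T cells, had 1.39 FPKM in HSF V30M against 1.75 in HSF WT. Kcna5, found in smooth muscle and heart, had 1.39 and 0.526, about 77 to 93 fragments against 21 to 30. Its mean lay under 1 and kept it out of the count above, although its log2 ratio was 0.65. Kcna4 and Kcna10 had at most 0.130, and Kcna7 was listed at 0 in both groups.

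Of the 8 genes of this class, 5 lie within 100 kb of another member, and neighbours differed in level. On chromosome 3, Kcna2 lies 63.1 kb from Kcna3 and 68.0 kb from Kcna10, the latter listed at 0 in HSF V30M against 0.028 in HSF WT. On chromosome 6, Kcna1 and Kcna6 lie 61.9 kb apart on the same strand. Elsewhere the members formed 6 further pairs within 100 kb of each other. Kcnj2 lies 38.2 kb from Kcnj16 on chromosome 11, and Kcnj16 had 0.05 and 0.0329. Kcnk5 lies 79.6 kb from Kcnk16 on chromosome 14, and Kcnk16 had 0 and 0.0708. The pair of Kcne1 and Kcne2 on chromosome 16, that of Kcnj1 and Kcnj5 on chromosome 9, and that of Kcnip1 and Kcnmb1, which overlap on chromosome 11, had no value above 0.55.

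The Kv beta subunits bind the inner face of Kv1 channels and shape their inactivation and transport. Kcnab1 had 9.69 FPKM in HSF V30M against 11.9 in HSF WT, and Kcnab2 had 4.59 and 4.74. Kcnab3 had 0.19 and 0.337. In the table Kcnab1 shares its locus with the antisense gene A330015K06Rik, which had 15.7 and 2.17, and without a stated strand protocol the reads of both cannot be told apart.

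Kcnh2 showed the largest ratio of all members on the log2(FPKM + 1) scale. It encodes the ERG channel that repolarises the heart and carries a resting current in several other cell types. It had 12.7 FPKM in HSF V30M against 2.86 in HSF WT, about 796 to 1273 fragments against 132 to 240. This is a 4.44-fold higher level, with a 95% interval of 3.69 to 5.38 from counting error alone, and 310 of the 15620 genes had a larger log2 ratio than its 1.83. Kcnh2 (ENSMUSG00000038319) is annotated on the minus strand of chromosome 5 from 24319589 to 24351604, where the only gene sharing its locus is listed at 0 in both groups. Among the members it held rank 7 in HSF V30M and rank 20 in HSF WT. No other member of its class approached it. Kcnh8, of the ELK type, had 0.72 and 1.29, in the opposite direction, and Kcnh1, Kcnh3, Kcnh4, Kcnh5, Kcnh6 and Kcnh7 had at most 0.471.

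Kv4 subunits carry the fast, transient A-type current. Kcnd3 had 2.66 FPKM in HSF V30M against 5.32 in HSF WT, a 2.0-fold lower level, with a log2 ratio of -0.79. Kcnd1 had 0.89 and 1.56, about 94 to 113 fragments against 122 to 165, which is 1.75-fold lower without the added 1 and a log2 ratio of -0.44 with it. Kcnd2 had at most 0.01. Among the Kv channel-interacting proteins, calcium-binding partners of Kv4, Kcnip3, also known as a transcriptional repressor, led with 2.21 and 1.39. Kcnip2 had 0.10 and 0.586, Kcnip4 had 0.62 and 0.579, and Kcnip1 was listed at 0 in both groups, where 3 fragments would have given 0.0925 in HSF V30M against 0.125 in HSF WT.

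The remaining voltage-gated subunits were low. The leading subunit of the fast Kv3 delayed rectifiers, Kcnc2, had 0.45 FPKM in HSF V30M against 0.463 in HSF WT. Kcns3, a modifier that is silent alone and alters Kv2 channels, had 5.83 and 3.95. Inside its span, on the opposite strand, RP24-418L10.2 had 5.17 and 2.06, and the reads of both cannot be told apart. The other 9 modifier subunits were all under a mean of 1. Of the Kv7 class, Kcnq1, known from heart and epithelia, had 2.26 and 2.09, whereas Kcnq3, a subunit of the neuronal M-current, had 0.41 and 0.0158. KCNE subunits are small single-pass proteins that tune Kv channels, and both measured above 1 were higher in HSF V30M without passing the fold: Kcne4 had 3.58 and 2.44, and Kcne3 1.32 and 0.681.

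The channels opened by calcium or sodium ions were lower in HSF V30M in each of the 5 members with a mean of at least 1, with a median log2 ratio of -0.28, and 1 of them was past the fold. Over all genes with that mean, 7744 of 15620 were lower by any amount. Kcnn4 encodes the intermediate-conductance calcium-activated channel of red cells and lymphocytes. It had 4.50 FPKM in HSF V30M against 8.42 in HSF WT, a 1.87-fold lower level with a log2 ratio of -0.78. Of the small-conductance channels, Kcnn1 had 1.90 and 2.53 and Kcnn3 0.75 and 0.944. Kcnn2 went the other way, with 1.29 and 0.421, at a mean under 1. Kcnma1, the pore of the large-conductance BK channel, had 0.78 FPKM in HSF V30M against 1.65 in HSF WT. The sodium-activated channels Kcnt1 and Kcnt2 had 2.04 and 2.54, and 1.51 and 1.80, respectively. Kcnu1, known from sperm and placed here by gene family rather than by what opens it, had 1.17 and 0.401. The log2 ratios of Kcnn2 and Kcnu1, 0.69 and 0.63, lay past the 1.5-fold limit in the higher direction, both at a mean under 1.

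The BK beta subunits alter the calcium sensitivity of that channel, and here 1 of them had a far higher FPKM than the pore itself. Kcnmb4, the form known from neurons, had 18.9 FPKM in HSF V30M against 17.8 in HSF WT. Its level was 24.2 times that of Kcnma1 in HSF V30M against 10.8 times in HSF WT. The annotated span of Kcnma1 reaches outside the locus of the table, and its coding transcripts range from 890 to 12094 bases. The length behind its FPKM, and so the size of these ratios, is therefore uncertain. Kcnmb4 shares its locus with Kcnmb4os2 on the opposite strand, which had 4.96 and 2.67. Kcnmb1, the smooth muscle form, had 0.55 and 0.508, and Kcnmb2 was listed at 0 in both groups.

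**Figure D3:**
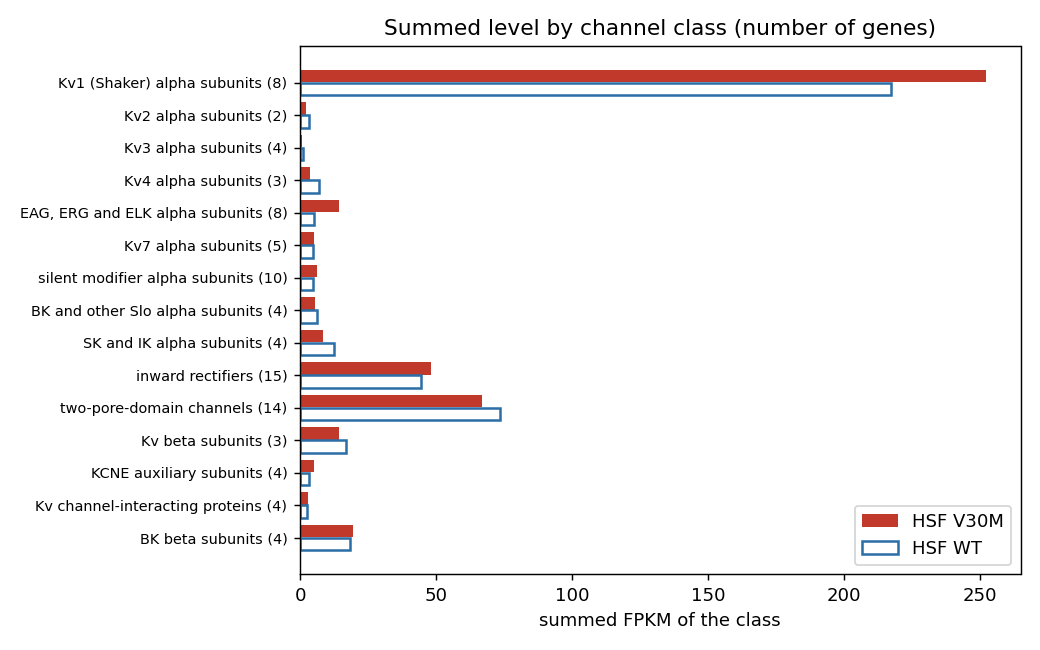
Summed FPKM of each channel class, with the number of genes in the class in parentheses, filled red for HSF V30M and open blue for HSF WT, from 0. The Kv1 class has the longest bars, 252 and 217, followed by the two-pore-domain channels, 66.8 and 73.6, and the inward rectifiers, 48.0 and 44.6.

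Inward rectifiers pass potassium more readily into than out of the cell and clamp the resting potential. Kcnj13 led with 28.9 in HSF V30M against 22.6 in HSF WT. It is annotated on the minus strand of chromosome 1 from 87386363 to 87394729, inside Gigyf2 on the plus strand, which had 26.5 and 29.6. As for Kcnab1, the reads of both genes cannot be told apart without a stated strand protocol, so the lead of Kcnj13 is uncertain. Kcnj2, the classical strong rectifier, had 5.78 and 3.68, about 634 to 755 fragments against 298 to 402. Kcnj12, of the same type, had 4.50 and 4.30.

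Kcnj10 and Kcnj15 had the lowest ratios of all members on that scale. Kcnj10, the glial rectifier that buffers potassium around neurons, had 1.10 FPKM in HSF V30M against 4.01 in HSF WT, about 119 to 143 fragments against 322 to 435. This is a 3.64-fold lower level, with a 95% interval of 2.94 to 4.54 from counting error alone, and a log2 ratio of -1.25, below which 477 of the 15620 genes lay. Kcnj15, a related rectifier that, unlike Kcnj10, is known mainly from epithelia, had 1.07 and 3.59, a 3.35-fold lower level and a log2 ratio of -1.15. The ratio of Kcnj10 to Kcnj15 was 1.03 and 1.12. The coding transcripts of Kcnj15 range from 318 to 5705 bases, so its level relative to Kcnj10 is uncertain. Kcnj10 (ENSMUSG00000044708) is annotated on chromosome 1 from 172341210 to 172374085 and has 1 coding transcript length of 5407 bases. Its neighbour Kcnj9, 11.9 kb away on the opposite strand, had 0.60 and 0.523.

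The channel that closes on ATP is built from a rectifier pore and a sulfonylurea receptor. Kcnj8, the pore of the vascular form, had 4.85 FPKM in HSF V30M against 4.30 in HSF WT, and its receptor Abcc9 had 4.48 and 5.43. The pore of the pancreatic and neuronal form, Kcnj11, had 0.35 and 0.461, and its receptor Abcc8 had 0.09 and 0.0183. None of the 4 was past the fold. The G protein-gated rectifiers Kcnj3, Kcnj5 and Kcnj6 had at most 0.09, and Kcnj1 and Kcnj4 were listed at 0 in both groups.

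Two-pore-domain channels carry the background leak of potassium, and none of the 6 with a mean of at least 1 was past the fold. Kcnk1, a weak rectifier, had 37.8 FPKM in HSF V30M against 44.9 in HSF WT. Kcnk5, sensitive to alkaline pH, had 10.7 and 11.9, and Kcnk2, opened by stretch and warmth, had 10.3 and 8.69. Kcnk6, Kcnk13 and Kcnk3 lay between 0.982 and 2.66. Kcnk10, a relative of Kcnk2, had 0.22 and 1.02, with a log2 ratio of -0.72 at a mean under 1. Kcnk9, an acid-sensitive leak channel, is listed at 0 in HSF V30M and had 0.191 in HSF WT. Its annotated span reaches outside the locus of the table, so its transcript length, and with it a number of fragments, could not be taken from the annotation.

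Low members make up most of the family. In all, 57 members had a mean FPKM under 1, and 18 were listed at 0 in at least 1 group, with no value above 0.191 in the other. The values of HSF V30M carry fewer decimals than those of HSF WT, so a 0 in HSF V30M can be a small value rounded down. Of the low members, Kcna5, Kcnn2 and Kcnu1 had log2 ratios past the 1.5-fold limit in the higher direction and Kcnk10 in the lower. The other 53 were within the limit on this scale, where the added 1 holds low values near 0.

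Genes that hold Kv1 channels in place were next compared, from a list of 11 juxtaparanodal and anchoring partners. Of the 6 with a mean of at least 1, 0 were past the fold, with a median log2 ratio of -0.07. Ank3, an ankyrin that anchors Kv7 and sodium channels at the node, had 118 FPKM in HSF V30M against 96.7 in HSF WT. The scaffolds Dlg1 and Dlg4 were within 1.11-fold between the groups, Dlg1 with 20.9 and 22.7. Epb41l3, the cytoskeletal linker of the paranode, had 7.01 and 7.96. Adam23, a receptor of the Lgi proteins, had 14.6 and 10.8. Cntnap2 and Cntn2, the adhesion pair of the juxtaparanode, had 0.73 and 0.147, and 0.73 and 0.502, respectively. Of 11 other channel partners, 3 had a mean of at least 1 and none was past the fold. Amigo1, a partner of Kv2 channels, had 10.7 and 8.45.

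Markers of several cell types differed between the groups as well. Their counts are read against the 8.22% of all genes that were higher and the 8.44% that were lower. Lower in HSF V30M past the fold, among genes with a mean of at least 1, were 6 of 6 skeletal muscle, 5 of 5 B cell, 3 of 3 T cell, 3 of 6 adipocyte and 2 of 6 macrophage markers. Markers under that mean did not all go the same way. In the skeletal muscle list Mb had 0.61 and 0.251 and Myh1 0.53 and 0.224, both higher, while Myh2 was lower. In the T cell list Cd3d had 0.51 and 0.486, while Cd3g and Cd8a were lower. The summed FPKM of the whole list was 37.4 in HSF V30M against 119 in HSF WT for skeletal muscle. It was 3.49 and 29.7 for B cells, 2.40 and 11.3 for T cells, 76.8 and 109 for macrophages, and 2318 and 3200 for adipocytes. Higher past the fold were 5 of 5 neutrophil, 5 of 6 erythrocyte and 3 of 8 neuron markers. In the neutrophil list Ly6g, at a mean under 1, was lower with 0.12 and 0.195. The summed FPKM was 101 in HSF V30M against 24.9 in HSF WT for neutrophils, 291 and 101 for erythrocytes, and 117 and 65.2 for neurons. Kcnn4, known from red cells and lymphocytes, was lower, as were the sums of the B and T cell lists, while that of the erythrocyte list was higher. Most of the neuron sum was Uchl1, with 87.0 and 43.4. Of the 8 neuron markers, 5 were higher and 3 lower by any amount, Stmn2 being lower with 8.45 and 11.7. Of the myelinating Schwann cell markers, 8 of 8 stayed within the fold. Of the non-myelinating ones, Gfap had 2.28 and 8.77 and Cdh2 13.3 and 7.84, and the other 4 were within it. Of 7 smooth muscle markers 1 was higher and 2 were lower past the fold, with sums of 879 and 1491. The difference between these sums lay in Tagln, with 472 and 1102. By any amount, 4 of the smooth muscle markers were higher and 3 lower. Of 6 endothelial markers 2 were higher, with sums of 254 and 192, of 6 pericyte markers 1 was higher, with sums of 150 and 113, and of 6 fibroblast markers 1 was lower, with sums of 2021 and 2015. No marker in these lists was at 0 in either group. The part of these cell types in the channel values was not tested.

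**Figure D4:**
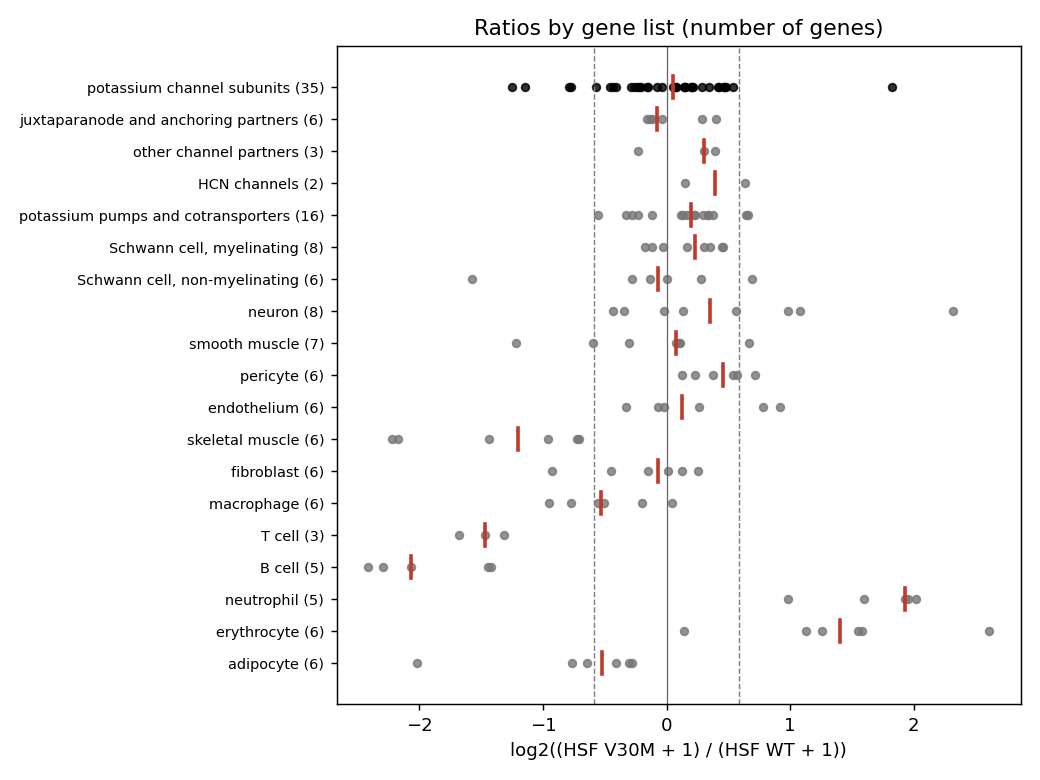
Log2 ratios (HSF V30M over HSF WT), on values with 1 added, for the 35 channel subunits and for the genes of each partner and cell type list with a mean FPKM of at least 1. Each point is a gene, red bars are medians and dashed lines the 1.5-fold limits; the channel subunits centre on 0.05, between the B cell list at -2.07 and the neutrophil list at 1.93.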

How the data were processed

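The authors deposited 1 table with an FPKM value per gene and group, made with Ion Torrent libraries aligned to GRCm38. STAR, Cufflinks and Cuffdiff are named in the submitters' processing notes, with versions not given in the sources used here. The labels list 2 mice per group, while the methods state n = 4 for RNA sequencing without saying whether per group. The table's fold changes, p-values and q-values are the authors' comparison and were not used.

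Decimal commas were replaced by points. Left out were 23 genes that Cuffdiff had marked as having too many alignments. Ratios are log2((HSF V30M + 1) / (HSF WT + 1)), and a gene was past the fold beyond 1.5, with a mean FPKM of at least 1. Described by name are members with a mean of at least 5, those past the fold with at least 1 FPKM in the higher group, the highest of each class, those listed at 0 in 1 group with at least 0.5 in the other (there were 0), neighbours within 100 kb, and partners by the first 2 of these; others named in class order were chosen after their values were seen. Some members and list genes are counted but not reported here by name. The members and lists were chosen with earlier results of these data known.

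Fragments were estimated from values piling up at whole fragments in single-transcript genes, after 201 bases were taken from the length. The estimate assumed 2 libraries per group. Fragment ranges span the coding transcripts and both libraries. Intervals (exact binomial, 95%) cover counting error only and rest on the lower ends of these ranges. Where fragments are not given, depth per gene is unknown. Positions and transcripts are from the GENCODE M21 annotation of GRCm38, which holds 50369 of the identifiers. Biopython 1.88, scipy 1.17.1, pandas 2.3.3, numpy 2.4.6 and matplotlib 3.10.9 were run under Python 3.11.15, and calls were tested on simulated data.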

Additional observations from a re-analysis of the deposited data

How the results depend on the processing

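No paired analysis was possible because only pooled values, 1 for each group, were deposited, and leaving out a replicate could not be run either. Kcnh2 was past the fold in the higher direction under every setting run. Of the 4 lower members, Kcnj10 and Kcnj15 remained with a fold of 2, which left 2 lower (3.98% higher and 3.94% lower over all genes), and Kcnn4 with a minimum mean FPKM of 5, which left 1 of 11 members lower (7.17% and 6.33%). With a pseudocount of 0.1, or with none, 4 members were higher and 8 lower, Kcne3, Kcnip3 and Kcnj2 joining Kcnh2, and Kcnd1, Kcnh8 and Kcnma1 being among those that joined the lower ones. The cause is the construction of the scale, since the added 1 shrinks ratios of low genes. Without a minimum, or with at least 1 FPKM in the higher group, a setting chosen after seeing the data, 4 were higher and 5 lower, Kcna5, Kcnn2, Kcnu1 and Kcnk10 being added. These counts are of 86 members without a minimum, against 6.06% and 6.3% of all genes, and of 39 members under the other setting, against 9.11% and 9.44%. Over all genes 10.9% were higher and 10.8% lower with the pseudocount of 0.1, and 10.1% and 9.88% with none, so the members' share past the fold lay above that of all genes under both and below it as reported. The median log2 ratio of the members was 0.063 with a pseudocount of 0.1, 0.0644 with none, 0.15 with a minimum of 5, 0.0144 without a minimum and 0.0774 with at least 1 FPKM in the higher group. It was -0.0753 without the 8 members that share a locus with a gene at 1 FPKM or more, also chosen after seeing the data; fewer members were then counted. Median-of-ratios scaling changed no count. Depth limits the members under a mean of 1.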

Other observations

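Genes that move potassium by other means than the Kcn channels were also followed, from lists of 18 pump and cotransporter genes and 4 HCN channels. Among the 16 with a mean of at least 1, 2 were past the 1.5-fold limit (8.22% of all genes in that direction), both higher in the group labelled HSF V30M. These were Atp1b1, a beta subunit of the sodium-potassium pump, with 2.85 FPKM in HSF V30M against 1.44 in HSF WT, and Fxyd7, a small regulator of the pump, with 35.8 against 22.6. The beta subunits Atp1b3 and Atp1b2 had 155 FPKM in HSF V30M against 142 in HSF WT, and 24.9 against 27.1. Fxyd1, the regulator known from muscle and heart, was the highest of the list, with 590 and 741, followed by Fxyd6 with 478 and 426. Fxyd3 had 136 and 166, Fxyd5 49.5 and 58.4, and Fxyd2 25.1 and 21.3. Atp1a4, the catalytic subunit known from sperm, had 0.04 and 0.983, at a mean under 1. Of the cotransporters, Slc12a2, which brings potassium and chloride in, had 32.3 and 27.3, while Slc12a4 and Slc12a7, which carry both out, had 58.4 and 46.1, and 17.2 and 13.0. Of the HCN channels, which open on hyperpolarisation and pass sodium as well as potassium, Hcn4 had 25.8 and 23.1, within the fold. The values are pooled over each group, so none of these differences was tested.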
